A study of Mus musculus with 6 samples.

Results

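The 10 genes described here encode surface molecules by which macrophages and other antigen-presenting cells signal activation or costimulate T cells. They were taken by name: Cd69, Cd80, Cd86, Cd40, Cd83, Cd274, Pdcd1lg2, Tnfsf9, Icosl and Cd44. Each was read from the probe set annotated to that gene symbol alone, and each had 1 such probe set. All 10 were measured among the 22180 genes of the arrays. The cells were Raw 264.7, a mouse line of monocytes and macrophages that is used as a stand-in for primary macrophages. The arrays labelled IL-33 came from cells given 50 ng/ml of that IL-1 family cytokine, and the arrays labelled PBS from cells without it, with 3 arrays in each group. Cells of both groups had been cultured with 10% serum and starved before treatment in 2% serum. How long the cells were treated is not stated in the sources used here.

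T cells need a second signal beside antigen, and presenting cells supply it through ligands of the B7 family and of the TNF family. CD80 and CD86 bind CD28, which activates, and CTLA-4, which restrains, while PD-L1 and PD-L2 bind the inhibitory receptor PD-1. CD40 works in the other direction, since the presenting cell receives a signal when T cells engage it. In macrophages many of these genes respond to microbial products, interferons and NF-kB signalling.

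The values are log2 expression values that the authors made with RMA, a method that corrects the background, makes the distributions of arrays alike and summarises the probes of a probe set. Levels of different probe sets are not comparable on this scale, so each gene is compared between groups only. The array medians over genes lay between 5.71 and 5.77, and 2 arrays of 1 group correlated across genes at r = 0.9972 to 0.9980. Differences are IL-33 minus PBS on the log2 scale, and adjusted p-values come from limma, fitted over all genes with Benjamini-Hochberg adjustment. Groups, and so directions, follow the titles of the samples. Array names given in the descriptions run against the titles, with IL in the names of the PBS arrays and P in the names of the IL-33 arrays, and a swap of the labels would reverse every sign given here. Whether replicates were separate cultures is not stated, and the spread behind the p-values may therefore be technical.

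The labelled cell type was checked against marker genes. Of 9 macrophage markers, 8 had mean values of 9.54 to 12.88 in the arrays labelled IL-33 and 9.57 to 12.87 in those labelled PBS, and the receptor gene Mertk had means of 5.16 and 5.17 in the same order. Fcgr1, the high-affinity IgG receptor, rose among them, by 1.41-fold at an adjusted p of 0.0448 (limma). Adgre1, an adhesion receptor gene of mature macrophages, differed by -0.29 with groups that did not overlap, at an adjusted p of 0.114 (limma). The 5 T cell markers measured had means of 3.88 to 4.95 in the arrays labelled IL-33 and 3.92 to 4.98 in those labelled PBS. Since probe sets are not on a common scale and have no detection calls, these levels describe the arrays and do not measure how many cells of a type were present. None of the 23 markers of T, B, NK, mast, fibroblast, endothelial and epithelial cells passed (limma), with 1 at an unadjusted p under 0.05, and the averaged levels of these 6 lists overlapped between the groups. The averaged level of the 6 dendritic cell markers measured lay between 5.32 and 5.36 in the arrays labelled IL-33 and between 5.51 and 5.59 in those labelled PBS. One of these, the integrin gene Itgax, had values of 6.48, 5.75 and 6.11 in the arrays labelled IL-33, against 7.24, 7.21 and 7.15 in those labelled PBS, which differ by -1.09 at an adjusted p of 0.0518 (limma). Without Itgax the averages of the other 5 overlapped, at 5.13 to 5.23 in the arrays labelled IL-33 and 5.18 to 5.27 in those labelled PBS. Dendritic cells express several of the genes described here, and whether the values of these genes are related to the Itgax difference was not tested. In bulk RNA, fewer cells with a transcript and less transcript per cell cannot be told apart.

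Of the 10 genes, Cd69 rose and the other 9 did not pass at an adjusted p under 0.05 (limma). The background is that 0.275% of all genes passed as higher, 0.316% as lower and 0.591% in either direction. With 57 higher and 102 lower after arrays were centred on their 75th percentile, against 61 and 70 as reported, the split over all genes depended on the scaling, while Cd69 was the single call among the 10 in both. The differences went both ways, with 4 genes above 0 and 6 below, and their median was -0.08, against -0.01 over all genes. Cd86, Cd40 and Icosl were above 0 beside Cd69. Cd83, Cd274, Cd80, Tnfsf9, Cd44 and Pdcd1lg2 were below 0. The values of the groups did not overlap in 7 genes, 4 higher and 3 lower. Over all genes 20.3% had groups that did not overlap, 10.3% higher and 10.1% lower. It was 29.9% among the genes that have at least the median mean value, to which 9 of the 10 belong. An unadjusted p under 0.05 was reached by the same number, 7 genes, where 13.2% of all genes and 17.8% of the brighter genes reached it. The 10 genes were chosen with earlier results of these data known, so these counts describe them and do not test them as a set.

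**Figure D1:**
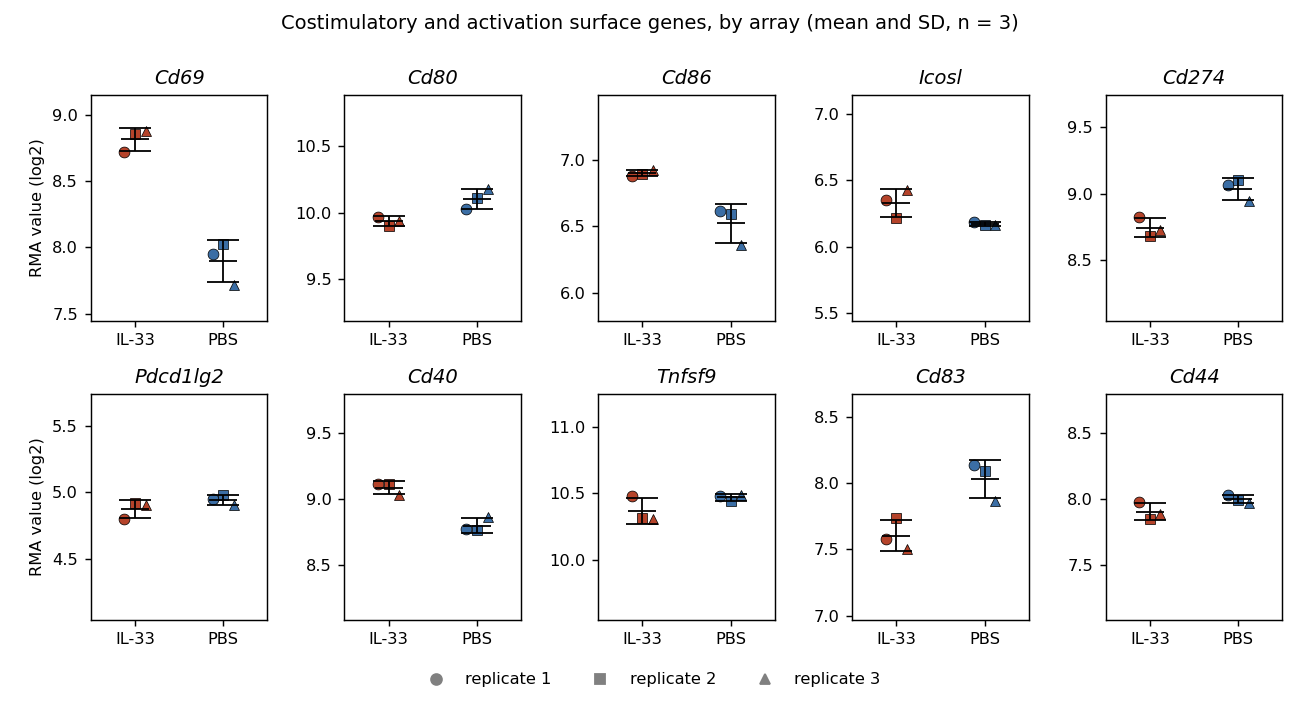
RMA values (log2, vertical axis) of the 10 genes on each array, with IL-33 left of PBS, points for arrays, and bars for the mean and SD (n = 3). All panels span the same range of log2 units; the groups lie clearly apart for Cd69 and overlap for Pdcd1lg2, Tnfsf9 and Cd44.

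Cd69 encodes an early activation antigen, a C-type lectin-like protein that appears on leukocytes soon after stimulation and holds back the sphingosine phosphate receptor S1PR1 in lymphocytes. Its values were 8.71, 8.85 and 8.88 in the arrays labelled IL-33, against 7.95, 8.02 and 7.72 in those labelled PBS. Every IL-33 value lay above every PBS value, and the gap between the nearest arrays of the groups was 0.69. The means were 8.81 ± 0.09 in the arrays labelled IL-33 and 7.90 ± 0.16 in those labelled PBS (SD, n = 3 each). The difference was 0.92 ± 0.09 (log2, SE), with a 95% interval of 0.70 to 1.13, a 1.89-fold rise with an adjusted p of 0.0147 (limma). It ranked 28 of 22180 genes by size of difference. Its call was lost without PBS replicate 1, IL-33 replicate 2 or IL-33 replicate 3, at adjusted p of 0.0754, 0.0882 and 0.0892, while the difference stayed between 0.83 and 0.98 over the 6 fits that left out an array (limma). S1pr1, the receptor that CD69 binds, differed by 0.21, at an adjusted p of 0.244 (limma).

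The ligands of CD28 and CTLA-4 lay on opposite sides of 0. Cd86 had values of 6.88, 6.90 and 6.92 in the arrays labelled IL-33, against 6.62, 6.59 and 6.36 in those labelled PBS. The IL-33 arrays were close together and above all PBS arrays, of which replicate 3 was the lowest. The difference was 0.38 ± 0.08 (log2, SE), with a 95% interval of 0.19 to 0.56 and an adjusted p of 0.105 (limma). Cd80 had values of 9.97, 9.90 and 9.94 in the arrays labelled IL-33, against 10.03, 10.11 and 10.18 in those labelled PBS. These groups did not overlap either, with the IL-33 arrays lower by a gap of 0.05 between the nearest arrays. The difference was -0.17 ± 0.06 (log2, SE), with a 95% interval of -0.31 to -0.03 and an adjusted p of 0.283 (limma).

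The ratio of Cd86 to Cd80 within an array removes what is common to both probe sets on that array. It was -3.09, -3.00 and -3.02 (log2) in the arrays labelled IL-33, against -3.41, -3.52 and -3.82 in those labelled PBS, so every IL-33 array had the higher ratio. The mean ratio differed by 0.55 between the groups. No test is given for it, since the pair was taken after the values were seen, and groups apart in opposite directions for Cd86 and Cd80 fix the separation of their ratio.

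**Figure D2:**
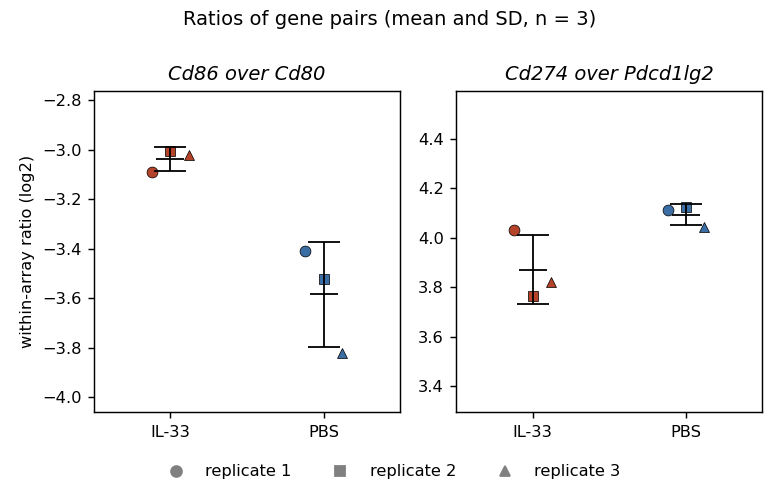
Within-array log2 ratios (vertical axis) of Cd86 over Cd80, the ligands of CD28, and of Cd274 over Pdcd1lg2, the ligands of PD-1, with IL-33 left of PBS, points for arrays, and bars for the mean and SD (n = 3). The Cd86 to Cd80 ratio is higher and the Cd274 to Pdcd1lg2 ratio lower on every array labelled IL-33.

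Icosl encodes the B7 family ligand of ICOS, a costimulatory receptor of activated T cells. Its values were 6.35, 6.21 and 6.42 in the arrays labelled IL-33, against 6.19, 6.17 and 6.16 in those labelled PBS. The PBS arrays were nearly alike, and the IL-33 arrays were more spread and all above them, the nearest by 0.03. The difference was 0.16 ± 0.06 (log2, SE), with a 95% interval of 0.005 to 0.31 and an adjusted p of 0.364 (limma).

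Cd274 encodes PD-L1, an inhibitory ligand that interferon-gamma induces in macrophages. Its values were 8.83, 8.69 and 8.73 in the arrays labelled IL-33, against 9.06, 9.10 and 8.95 in those labelled PBS. All IL-33 arrays were lower, by a gap of 0.12 between the nearest arrays. The difference was -0.29 ± 0.07 (log2, SE), with a 95% interval of -0.45 to -0.14 and an adjusted p of 0.126 (limma). Pdcd1lg2, its neighbouring protein-coding gene on chromosome 19, encodes PD-L2, the other ligand of PD-1. Its values were 4.80, 4.92 and 4.91 in the arrays labelled IL-33, against 4.95, 4.98 and 4.90 in those labelled PBS, and the groups overlapped. The difference was -0.07 ± 0.06 (log2, SE), with a 95% interval of -0.20 to 0.06 and an adjusted p of 0.675 (limma). The ratio of Cd274 to Pdcd1lg2 within an array was 4.03, 3.76 and 3.82 (log2) in the arrays labelled IL-33, against 4.11, 4.12 and 4.04 in those labelled PBS. The mean ratio differed by -0.22, likewise given without a test, and the highest IL-33 ratio lay just under the lowest PBS ratio.

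Promoter sequences were in the RefSeq table for 5 of the 10 genes, as 250 bases before and 50 after a start site (build GRCm38.p6). They are shown for Cd80, Icosl and Cd274, whose groups did not overlap, and for Pdcd1lg2, which shares its receptor with Cd274. Both strands were searched for 4 motifs of factors that act on such genes: AP-1 (TGANTCA), the STAT site GAS (TTCNNNGAA), the interferon element ISRE (its core GAAANNGAA) and the NF-kB motif, with matches in capitals. The sequences run 5′ to 3′ on the strand of the gene, which is the plus strand for all 4. The Cd80 window is chr16:38458683-38458982, the Icosl window chr10:78069118-78069417, the Cd274 window chr19:29367188-29367487 and the Pdcd1lg2 window chr19:29410669-29410968.
Cd80: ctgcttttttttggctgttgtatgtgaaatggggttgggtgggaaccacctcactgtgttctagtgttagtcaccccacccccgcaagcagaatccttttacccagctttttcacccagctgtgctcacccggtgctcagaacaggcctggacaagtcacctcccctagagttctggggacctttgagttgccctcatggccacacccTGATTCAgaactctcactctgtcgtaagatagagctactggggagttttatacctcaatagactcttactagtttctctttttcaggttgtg
Icosl: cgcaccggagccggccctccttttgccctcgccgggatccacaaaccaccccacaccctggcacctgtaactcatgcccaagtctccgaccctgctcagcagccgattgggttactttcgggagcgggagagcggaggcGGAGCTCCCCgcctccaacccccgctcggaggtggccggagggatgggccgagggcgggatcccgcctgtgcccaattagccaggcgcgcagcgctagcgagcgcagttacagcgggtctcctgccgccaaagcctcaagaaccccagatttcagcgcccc
Cd274: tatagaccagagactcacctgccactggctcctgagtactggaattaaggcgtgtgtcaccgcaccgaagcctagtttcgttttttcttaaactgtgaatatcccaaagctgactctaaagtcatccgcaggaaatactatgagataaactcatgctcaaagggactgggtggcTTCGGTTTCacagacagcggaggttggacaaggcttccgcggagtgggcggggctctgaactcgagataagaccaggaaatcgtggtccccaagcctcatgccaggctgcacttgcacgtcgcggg
Pdcd1lg2: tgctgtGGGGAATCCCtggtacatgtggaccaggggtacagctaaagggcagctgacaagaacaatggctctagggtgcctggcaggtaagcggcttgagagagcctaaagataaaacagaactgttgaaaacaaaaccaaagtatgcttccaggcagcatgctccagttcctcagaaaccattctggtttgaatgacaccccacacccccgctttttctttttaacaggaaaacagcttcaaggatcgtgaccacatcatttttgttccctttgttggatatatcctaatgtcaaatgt
Counted from the start site to the first base of the match, the Cd80 window held 1 AP-1 match at -42 and the Cd274 window 1 ISRE core match, on the other strand, at -76. The Icosl window held 1 NF-kB match, on the other strand, at -111. The Pdcd1lg2 window held 1 NF-kB match, which fits on either strand, at -244. The window of Cd44, which is not shown, held no match to these letters. Of 32851 promoter windows in the table, 7.81% held the AP-1 motif, 8.46% the NF-kB motif, 8.30% GAS and 8.56% the ISRE core. A match describes the letters and not a bound site. Neither Icosl nor Pdcd1lg2, whose windows held the NF-kB matches, passed, and whether matches go with differences was not tested.

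Among the TNF family genes, Cd40 was above 0 and Tnfsf9 below. Cd40 encodes the receptor through which T cells license macrophages and B cells, and it signals through TRAF adaptors. Its values were 9.11, 9.11 and 9.03 in the arrays labelled IL-33, against 8.77, 8.76 and 8.86 in those labelled PBS. All IL-33 arrays were higher, by a gap of 0.16 between the nearest arrays. The difference was 0.29 ± 0.06 (log2, SE), with a 95% interval of 0.15 to 0.42 and an adjusted p of 0.0944 (limma), the second smallest of the 10. Tnfsf9 encodes 4-1BB ligand, which costimulates T cells through 4-1BB. Its values were 10.48, 10.31 and 10.31 in the arrays labelled IL-33, against 10.48, 10.44 and 10.49 in those labelled PBS. Replicate 1 of the IL-33 arrays lay within the PBS range and the other two below it. The difference was -0.10 ± 0.06 (log2, SE), with a 95% interval of -0.25 to 0.05 and an adjusted p of 0.541 (limma).

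Cd83 encodes an immunoglobulin superfamily protein of mature dendritic cells and activated macrophages that stabilises CD86 and MHC class II at the surface. Its values were 7.57, 7.73 and 7.50 in the arrays labelled IL-33, against 8.14, 8.09 and 7.87 in those labelled PBS. All IL-33 arrays were lower, by a gap of 0.13 between the nearest arrays. The difference was -0.43 ± 0.09 (log2, SE), the largest below 0 among the 10, with a 95% interval of -0.65 to -0.21 and an adjusted p of 0.118 (limma). Cd44 encodes the hyaluronan receptor, an adhesion molecule that is raised on activated leukocytes. Its values were 7.98, 7.85 and 7.89 in the arrays labelled IL-33, against 8.03, 7.99 and 7.97 in those labelled PBS, and the groups overlapped by less than 0.01. The difference was -0.09 ± 0.05 (log2, SE), with a 95% interval of -0.22 to 0.04 and an adjusted p of 0.526 (limma). The value summarises the whole transcript, so the splice forms of Cd44 are not separated.

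**Figure D3:**
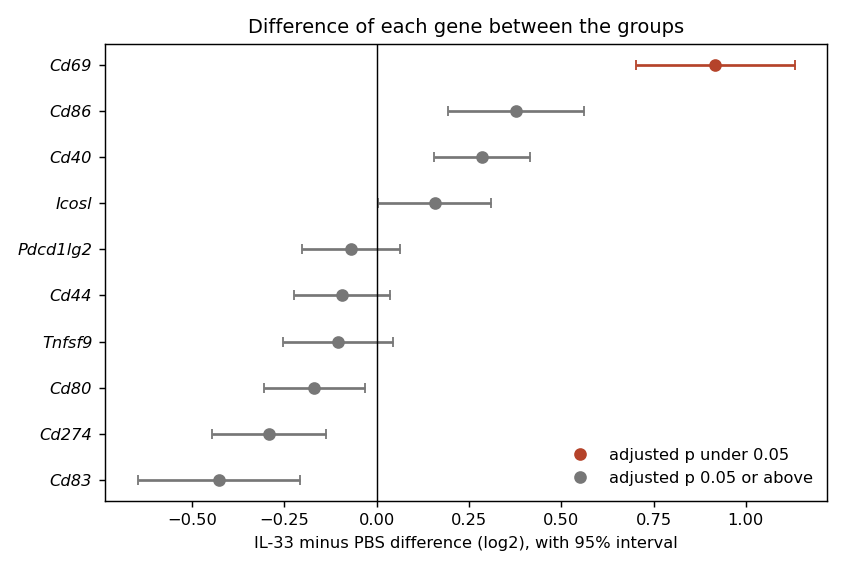
Differences between the groups (IL-33 minus PBS, log2, horizontal axis) for each gene, with 95% intervals from limma. Cd69 stands at 0.92 and is the single gene with an adjusted p under 0.05; the intervals of Pdcd1lg2, Cd44 and Tnfsf9 include 0.

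The 95% intervals above are for 1 gene at a time and are not adjusted for the number of genes, so 7 of the 10 exclude 0 while 1 passed the adjusted test. By size of difference, Cd69, Cd83, Cd86, Cd274 and Cd40 lay in the top 5% of all genes. Within the PBS group, replicate 3 held the lowest value for 7 of the 10 genes. Without that array the differences were 0.83 for Cd69, 0.29 for Cd86, 0.32 for Cd40, -0.51 for Cd83 and -0.34 for Cd274, and Cd69 still passed, at an adjusted p of 0.0412 (limma). All 10 genes kept the sign of their difference under every alternative in which they were tested.

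Whether the genes just short of the threshold passed varied with the prior variance used and with the set of genes fitted. Each set of genes or probe sets gave its own estimate of the prior variance, so this and the number tested were not separated. With a prior variance trended on intensity and robust to outliers, 5 of the 10 passed, where 4.51% of all genes did. These were Cd69, Cd40 and Cd86, higher, and Cd83 and Cd274, lower, with adjusted p of 5.34e-05, 0.0053, 0.025, 0.0117 and 0.0112 (limma). The same 5 passed when the genes with at least the median mean value were tested alone, where 6.85% passed. Among genes from the 25th percentile of mean value upward, Cd69 and Cd40 passed, where 1.78% did. With all probe sets tested together 0.0413% passed and none of the 10 did, and Cd69 had an adjusted p of 0.0785 (limma).

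**Figure D4:**
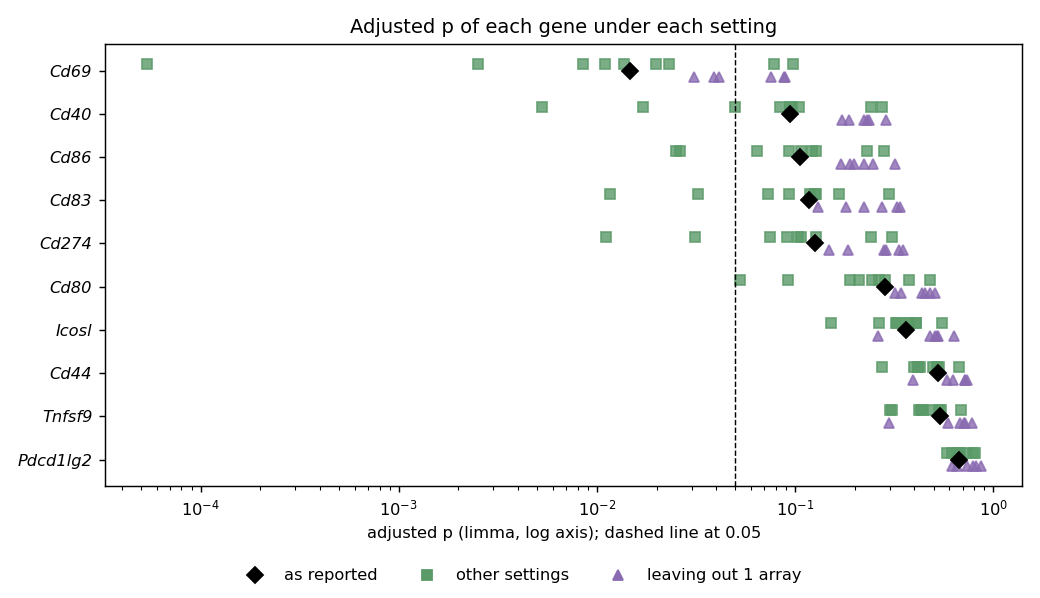
Adjusted p (limma, horizontal log axis) of each gene as reported (diamonds), under the other settings (squares) and leaving out 1 array (triangles), with a dashed line at 0.05. Cd69 passes in 7 of the 9 other settings and 3 of the 6 that leave out an array, Cd40, Cd86, Cd83 and Cd274 in 2 or 3, and the other 5 genes in none.

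The receptors, partners and regulators of these molecules gave no call in the fit as reported. Of 93 further genes in 7 lists, 84 were measured and 9 were not analysed here. None of the 84 passed over all genes (limma), while 29 had an unadjusted p under 0.05, which 13.2% of all genes reached. Under the trended and robust prior 9 passed, 3 higher and 6 lower, where 4.51% of all genes did. Either filter on dim genes gave 3 calls. At the 25th percentile 74 of the 84 were tested, where 1.78% of the genes kept passed, and at the median 56, where 6.85% did. Array weights gave 2 calls, where 193 of 22180 genes passed. Repeated quantile normalization and centring on the 75th percentile gave 1 each, where 129 and 159 of 22180 did. The genes named from each list are those with the smallest p.

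Among 20 other costimulatory and coinhibitory ligands, 10 lay above 0 and 10 below, with a median of 0.02. Cd47, whose product tells macrophages not to engulf a cell, differed by 0.28, at an adjusted p of 0.0763 (limma). Tnfsf10, which encodes the death ligand TRAIL, differed by 0.36, at an adjusted p of 0.19 (limma). Of 8 genes for T cell receptors of these molecules or for other partners, the median was 0.01. Beside S1pr1, Rgmb, a binding partner of PD-L2, differed by -0.16, at an adjusted p of 0.321 (limma).

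Of 11 CD40 and TRAF signalling genes measured, 6 lay above 0 and 5 below, with a median of 0.004. Tnfaip3, which encodes the NF-kB inhibitor A20, differed by -0.64, at an adjusted p of 0.0523 (limma). Traf1, an adaptor of CD40 and 4-1BB, differed by -0.26, at an adjusted p of 0.187 (limma). Of 10 regulators of PD-L1 and PD-L2, 6 lay above 0, with a median of 0.06. Irf1, the interferon-regulated activator of Cd274, had a difference of 0.20, and Ifngr1, a chain of the interferon-gamma receptor, of 0.15, with adjusted p of 0.198 and 0.235 (limma). Both lay above 0 where Cd274 lay below.

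Of 8 genes of MHC class II and its turnover measured, 5 lay above 0, with a median of 0.02. H2-DMb1, a chain of the peptide-loading factor DM, had a difference of -0.35, and H2-DMa, its partner chain, of -0.08, with adjusted p of 0.212 and 0.656 (limma). The means of H2-DMb1 were low, at 3.34 in the arrays labelled IL-33 and 3.70 in those labelled PBS, and both filters on dim genes dropped it. Of 12 CD44 ligands and partners measured, 7 lay above 0, with a median of 0.04. Rdx and Ezr, which encode radixin and ezrin and tie CD44 to actin, differed by 0.13 and 0.14, at adjusted p of 0.327 and 0.364 (limma). Of 15 other activation markers of myeloid cells measured, 4 lay above 0 and 11 below, with a median of -0.09. Treml4 and Trem1, receptors of the TREM family, differed by -0.38 and -0.25, at adjusted p of 0.0593 and 0.233 (limma).

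**Figure D5:**
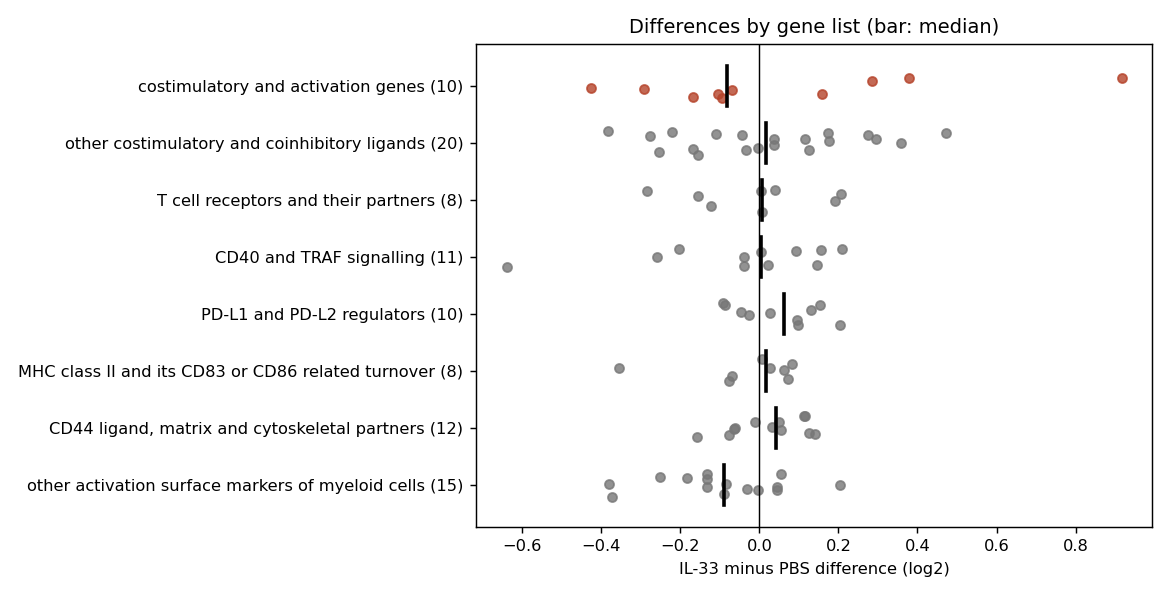
Differences (IL-33 minus PBS, log2, horizontal axis) of every measured gene by list, with the number measured in parentheses and a bar at the median. Cd69, at 0.92, lies to the right of every other gene shown, and the list medians lie between -0.09 and 0.06.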

How the data were processed

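RNA from Raw 264.7 cells was converted to biotin-labelled cDNA for 6 whole-transcript arrays, per the labels' protocols. The deposited table holds 1 log2 value per probe set and array, which the authors made with RMA per the submitters' processing notes; no version is given in the sources used here. RMA equalises the arrays' distributions, which hides a shift common to most genes. Arrays give no count depth, and their number limits the precision; the median SE of a log2 difference was 0.073. The table has no detection calls.

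Of 41345 probe sets, 23521 had exactly 1 symbol in the platform annotation, 1814 had several and 16010 were not listed. A gene was read from its probe set with the highest mean over the 6 arrays, which gave 22180 genes. Values were fitted as deposited with limma 3.58.1 under R 4.3.3 (functions lmFit and eBayes, group as the 1 coefficient, no filter), with Benjamini-Hochberg adjustment over all genes and a threshold of 0.05. Figures were drawn with matplotlib 3.10.9. The fit was tested on simulated data with known changes.

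The members and lists were chosen with earlier results of these data known. The 10 genes were named whatever their values. Of each further list, the genes that passed were to be named, and where none did, the 2 with the smallest p. Cell type markers were named as a check. Both groups carry replicate numbers 1 to 3. Deviations of same-numbered arrays correlated at r = 0.082, 0.088 and 0.022, and the numbers were not taken as pairs. Alternatives were array weights, a replicate block, a prior variance both trended and robust, testing all probe sets other than controls, dropping dim genes at 2 levels, arrays centred on their 75th percentile, quantile normalization repeated, a gene's probe sets averaged, and each array left out.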

Additional observations from a re-analysis of the deposited data

How the results depend on the processing

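Cd69 was the single call among the 10 genes as reported, with array weights, with arrays centred on their 75th percentile, with quantile normalization repeated and with a gene's probe sets averaged. The count of the 10 that passed was 2 among genes at or above the 25th percentile of mean value (Cd69 and Cd40), 5 among genes at or above the median, 5 with the trended and robust prior variance, 0 with all probe sets other than controls, and 0 to 1 leaving out an array. With the replicate number as a block (replicate block) 0 of the 10 passed, with Cd69 at an adjusted p of 0.0979, and this fit has fewer degrees of freedom. Over all genes, 131 passed as reported, 296 and 760 in the 2 filtered sets and 1000 with the trended and robust prior variance. The count was 21 with the replicate block, 17 with all probe sets, and 15 to 83 leaving out an array, where fewer samples remain. The filtered sets and the set of all probe sets differ both in the number of features adjusted over and in the prior variance estimated from them. What moved any of these counts was not tested. No gene of the 10 changed sign. Pdcd1lg2 has no value among genes at or above the median, since its mean lies below it. No array has a detection call, so how far any of these probe sets lies above background is unknown here.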
